A study of Mus musculus with 24 samples.

Results

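The difference between aortas of mice given angiotensin II (Ang II) and aortas of sham-infused mice was compared between 6 and 4 months after a 2-week infusion. Of the 24 RNA libraries in the series, the 16 harvested at 4 or 6 months enter the comparison: 4 libraries each of sham and Ang II at 4 months, and 4 each of sham and Ang II at 6 months. All came from wild-type (WT) mice, whose ages the labels do not give, and all mice carried a subcutaneous osmotic minipump for 2 weeks that delivered Ang II or vehicle. Ang II is a hormone that narrows arteries and thereby raises blood pressure, and the series concerns the part of the receptor Axl in the inflammation that follows a spell of hypertension. The quantity tested for every gene was the interaction, that is, the log2 difference between Ang II and sham at 6 months minus the log2 difference at 4 months. A negative interaction belongs to a gene whose Ang II level, relative to sham, was lower at 6 months than at 4 months. Since no label ties each replicate to its own animal, the p-values reflect only how far these libraries spread, which may be technical.

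Ang II draws monocytes from the blood into the outer coat of the aorta, where they become macrophages that clear debris, secrete chemokines and carry proteases that cut matrix. The aorta is also wrapped in perivascular fat, which in the thoracic part resembles brown fat and burns or stores lipid. Smooth muscle cells of the middle coat hold the contractile machinery, and their gene expression, like that of the fat, follows a daily clock.

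The labels name the same library kit for all samples, yet the libraries of the 2 times differ in composition, which bears on every level quoted here. At 4 months a library held 19.16 to 24.90 (in 1e6) counts, of which 10.1% to 16.3% came from the mitochondrial chromosome. At 6 months a library held 37.64 to 58.68 (in 1e6) counts, of which 31.7% to 59.3% were mitochondrial, and Rn7sk, an RNA without a poly(A) tail, stood at 2182 to 3771 CPM (counts scaled to a library of 1e6) against 2.09 to 15.4 at 4 months. Time and this difference in composition cannot be told apart, and levels are compared here only within a time. Fat markers were more abundant than smooth muscle markers in all 16 libraries: the general adipocyte list summed to 9002 to 31286 CPM and the contractile smooth muscle list to 1695 to 4808 CPM. Genes of sympathetic neurons and chromaffin cells summed to 717 to 2298 CPM at 4 months and 5.39 to 26.2 CPM at 6 months in both treatments. Of the 16 libraries, 3 stand apart: sham replicate 1 and Ang II replicate 4 at 6 months, in which 48.9% and 62.3% of counts were ribosomal RNA, and sham replicate 4 at 4 months, in which Acta2 of smooth muscle reached 940 CPM against 199 to 211 CPM in the other sham libraries of that time.

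Macrophage genes were higher in Ang II than in sham aortas at 4 months and level with or below sham at 6 months. Of 19571 genes tested, 5 passed the interaction test at an adjusted p under 0.05 in edgeR, which is 0.0255% of all. Ms4a7 and Cd68, which are macrophage membrane proteins, Mmp14, a membrane-bound metalloprotease that cuts collagen, and Uap1l1, a relative of the enzyme that makes UDP-N-acetylglucosamine, were lower by this measure. Fam83a, a signalling scaffold protein, was higher. In bulk tissue, fewer cells of a type and less RNA per cell cannot be told apart.

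The bases upstream of the starts of these genes are shown because the macrophage genes moved together and PU.1, the transcription factor that macrophage genes share, recognises a short core. The windows are the 250 bases before each start in RefSeq on GRCm38.p6, read 5′ to 3′ on the gene's strand. Capitals mark GAGGAA, the core searched on both strands, so that TTCCTC is the same core on the opposite strand. Of the passing genes, Cd68 (chr11:69666171-69666420, minus strand), Ms4a7 (chr19:11336147-11336396, minus strand) and Mmp14 (chr14:54431348-54431597, plus strand) have a window in the table. Ptafr (chr4:132563817-132564066, plus strand) and Ccl8 (chr11:82114935-82115184, plus strand) are 2 of the genes that came close to passing, and they were chosen after their windows were seen to hold the core. Of the 10 genes named in the lower direction 8 have a window, and 4 of those hold the core: Cd68, Hpgds, Ptafr and Ccl8.
Cd68: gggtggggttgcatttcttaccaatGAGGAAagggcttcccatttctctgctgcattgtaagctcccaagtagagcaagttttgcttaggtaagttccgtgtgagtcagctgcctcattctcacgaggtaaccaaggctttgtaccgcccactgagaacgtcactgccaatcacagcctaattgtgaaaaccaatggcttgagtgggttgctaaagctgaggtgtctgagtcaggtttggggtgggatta
Ms4a7: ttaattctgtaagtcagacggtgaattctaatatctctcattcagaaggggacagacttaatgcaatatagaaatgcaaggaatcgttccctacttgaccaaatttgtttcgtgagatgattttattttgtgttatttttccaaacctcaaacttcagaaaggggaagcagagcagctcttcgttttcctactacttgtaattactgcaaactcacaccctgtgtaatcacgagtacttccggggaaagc
Mmp14: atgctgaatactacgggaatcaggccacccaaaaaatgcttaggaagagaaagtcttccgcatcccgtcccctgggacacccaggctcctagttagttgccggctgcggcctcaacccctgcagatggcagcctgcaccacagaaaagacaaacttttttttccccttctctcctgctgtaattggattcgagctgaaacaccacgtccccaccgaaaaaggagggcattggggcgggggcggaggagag
Ptafr: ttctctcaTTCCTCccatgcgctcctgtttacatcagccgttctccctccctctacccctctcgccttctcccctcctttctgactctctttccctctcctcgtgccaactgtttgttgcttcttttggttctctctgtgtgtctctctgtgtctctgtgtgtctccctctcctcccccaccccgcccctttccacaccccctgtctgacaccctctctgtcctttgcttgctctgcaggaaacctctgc
Ccl8: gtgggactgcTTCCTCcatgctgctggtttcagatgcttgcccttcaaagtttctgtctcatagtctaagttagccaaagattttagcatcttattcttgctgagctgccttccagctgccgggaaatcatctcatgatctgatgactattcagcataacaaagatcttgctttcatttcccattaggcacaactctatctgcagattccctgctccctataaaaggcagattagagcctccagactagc
The core lies 225 bases before the start in Cd68, 242 in Ptafr and 240 in Ccl8. These letters are not in the windows of Ms4a7 and Mmp14. Of the 20 genes of the macrophage and monocyte list, 16 have a window and 8 of those hold the core, which occurs in 6220 of 27025 windows, or 23% of all. A match describes the letters and is no evidence of binding.

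Cd68 (ENSMUSG00000018774.13, chr11:69664213-69666153, GRCm38) encodes a lysosomal membrane protein used to mark macrophages. At 4 months its level was 7.18, 6.73, 8.81 and 9.07 CPM in sham libraries, while Ang II libraries held 21.7, 28.4, 28.3 and 26.8 CPM. Every Ang II library lay above every sham library, and the mean was 3.31-fold higher (log2 difference 1.73, SE 0.22, adjusted p = 0.00888, edgeR). The 6-month levels were 12.1, 13.8, 9.54 and 9.32 CPM in sham and 7.71, 6.59, 7.80 and 13.9 CPM in Ang II libraries. There 3 of the 4 Ang II libraries lay below all sham libraries, and replicate 4, which also held most ribosomal RNA, lay above them. The interaction was -2.05 (SE 0.30, adjusted p = 0.0295, edgeR), and it was -2.28 (adjusted p = 0.00744, edgeR) without the 2 libraries rich in ribosomal RNA.

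Ms4a7 (ENSMUSG00000024672.11, chr19:11321039-11336146) encodes a membrane-spanning protein of tissue macrophages. Its level at 4 months was 1.97, 1.61, 1.13 and 1.98 CPM in sham and 7.64, 6.34, 6.21 and 6.90 CPM in Ang II libraries, a 4.04-fold higher mean. The 6-month sham libraries held 3.84, 3.98, 3.04 and 2.20 CPM and the Ang II libraries 3.11, 2.64, 2.60 and 2.24 CPM. The groups did not overlap at 4 months and overlapped at 6 months, and the interaction was -2.31 (SE 0.31, adjusted p = 0.0253, edgeR).

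Mmp14 (ENSMUSG00000000957.11, chr14:54431612-54445364) is expressed by macrophages, fibroblasts and smooth muscle cells alike, so it marks no single cell type. At 4 months it stood at 18.8, 18.5, 19.7 and 24.5 CPM in sham and 29.8, 32.8, 31.1 and 32.9 CPM in Ang II libraries. Its 6-month values were 38.2, 42.4, 37.0 and 34.5 CPM for sham and 27.1, 26.4, 28.6 and 31.6 CPM for Ang II. The groups did not overlap at either time, and the order was opposite: log2 differences were 0.64 (SE 0.10) at 4 months and -0.42 (SE 0.10) at 6 months. Its interaction was -1.06 (SE 0.14, adjusted p = 0.0253, edgeR), although the 6-month difference alone did not pass (adjusted p = 0.504, edgeR).

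Uap1l1 (ENSMUSG00000026956.15, chr2:25359889-25365682) stood at 12.3, 10.3, 11.8 and 10.2 CPM in sham and 18.5, 21.2, 19.4 and 19.3 CPM in Ang II libraries at 4 months. By 6 months the values were 15.6, 14.2, 11.9 and 12.4 CPM in sham and 12.1, 10.9, 11.8 and 10.3 CPM in Ang II libraries. The groups were apart at 4 months, where Ang II was 1.76-fold higher, and overlapped at 6 months. Its interaction was -1.08 (SE 0.15, adjusted p = 0.0295, edgeR).

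Fam83a (ENSMUSG00000051225.9, chr15:57985419-58011009) was the passing gene of the opposite direction. It stood at 9.23, 9.18, 9.98 and 9.07 CPM in sham and 5.25, 4.42, 6.31 and 6.24 CPM in Ang II libraries at 4 months. At 6 months it stood at 3.77, 4.59, 3.09 and 3.97 CPM in sham and 8.34, 5.99, 7.37 and 5.43 CPM in Ang II libraries. Ang II libraries were all below sham at 4 months and all above sham at 6 months, 0.594-fold and 1.76-fold of sham by the means of the fit. The interaction was 1.57 (SE 0.24, adjusted p = 0.0406, edgeR).

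**Figure D1:**
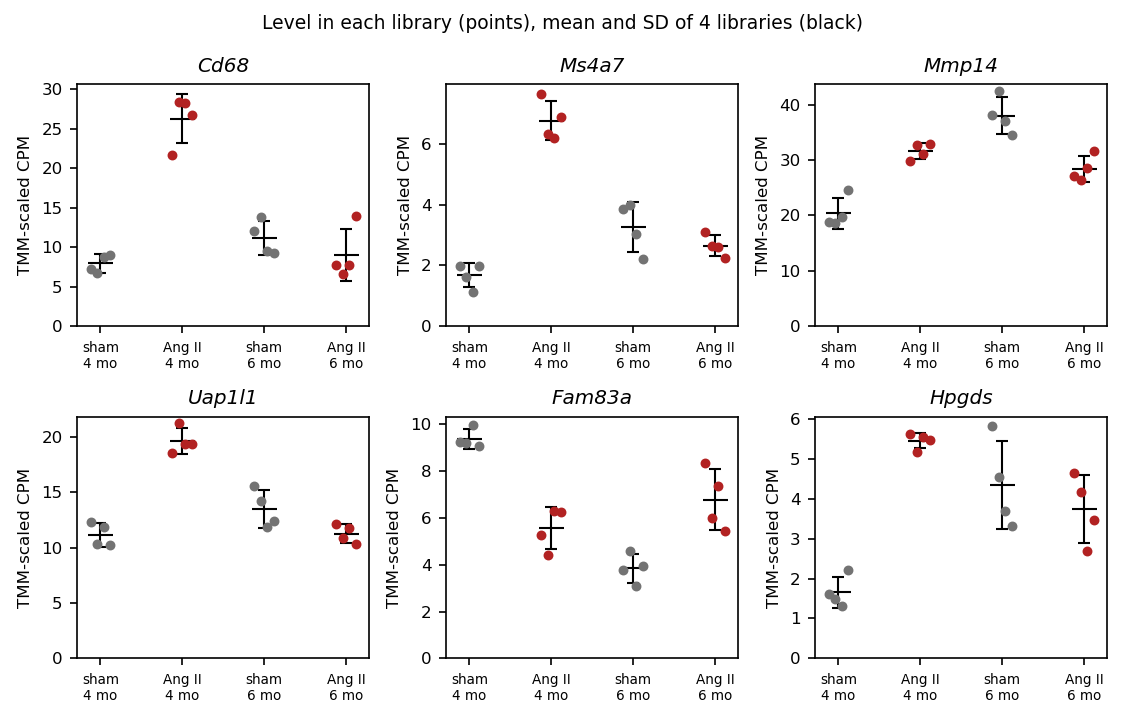
Level in each library (points, CPM scaled by TMM, axes from 0) of the 5 genes that passed the interaction test and of Hpgds, with the mean and SD of 4 libraries in black. Sham is grey and Ang II red. Cd68, Ms4a7, Mmp14 and Uap1l1 are higher in every Ang II library at 4 months only, while Fam83a is lower at 4 months and higher at 6 months.

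The count of 5 genes depends on single libraries. With 1 library left out, none passed without any one of sham replicates 1, 2 and 3 or Ang II replicates 1, 2, 3 and 4 at 4 months, sham replicates 1 and 2 or Ang II replicates 2 and 3 at 6 months. There were 16 without sham replicate 4 at 4 months and 10 without Ang II replicate 1 at 6 months. Leaving out both libraries rich in ribosomal RNA left 1, Cd68. The 5 genes kept their sign in all 28 alternative settings, and DESeq2, which called 256 genes, and limma voom, which called 14, called all 5.

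None of the 6 genes next by p in the lower direction passed in edgeR, while DESeq2 called all 6. Hpgds, which makes prostaglandin D in macrophages and mast cells, stood at 1.62, 1.48, 1.32 and 2.21 CPM in sham and 5.63, 5.19, 5.55 and 5.47 CPM in Ang II libraries at 4 months. The 6-month levels were 5.84, 4.54, 3.69 and 3.33 CPM in sham and 4.66, 4.17, 2.69 and 3.48 CPM in Ang II libraries. The groups were apart at 4 months and overlapped at 6 months (interaction -1.92, SE 0.32, adjusted p = 0.0578, edgeR). Ccl8, a chemokine that attracts monocytes, stood at 3.73, 1.95, 1.21 and 4.85 CPM in sham and 13.8, 34.6, 10.2 and 23.2 CPM in Ang II libraries at 4 months, 6.92-fold higher. The 6-month sham libraries held 6.54, 10.2, 4.42 and 5.0 CPM and the Ang II libraries 4.11, 3.40, 3.51 and 5.65 CPM. Its interaction of -3.45 (SE 0.63) was the most negative of the named genes and missed the threshold (adjusted p = 0.109, edgeR). Ptafr, the receptor of platelet-activating factor, was apart in opposite directions at the 2 times, with log2 differences of 0.88 and -0.51 and an adjusted p of 0.0587 in edgeR. The organic anion transporter Slco2b1 had an interaction of -0.81 and an adjusted p of 0.0578, the Wnt inhibitor Apcdd1 one of -0.90 and 0.0578, and the ectonucleotidase Entpd2 one of -0.83 and 0.109, all by edgeR. Exons of Entpd2 and Slco2b1 overlap those of other genes, which the counting may not separate.

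Members of the macrophage and monocyte list moved in the same direction. Of its 20 genes, all measured, 2 passed the interaction test (Cd68 and Ms4a7), 14 had an unadjusted p under 0.05 in the lower direction against 4.96% of all genes, and all 20 had an interaction below 0. At 4 months 20 of 20 were higher in Ang II by the fit, and in 11 the Ang II libraries lay above all sham libraries, against 2.61% of all genes. At 6 months 2 of 20 were above 0, and in none did the groups separate. The shares of all genes apart at 6 months were 1.6% above and 1.35% below, so that 0 of 20 lies near the background. The median log2 difference of the list was 0.85 at 4 months and -0.29 at 6 months, beside 0.01 and 0.00 (0.0126 and -0.00424) over all genes tested. Some members of the list were chosen for their response in these data, so its direction is no independent evidence.

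Individual members show how wide the pattern was. Mpeg1, which forms pores in engulfed bacteria, stood at 31.4, 14.9, 21.6 and 30.3 CPM in sham and 61.0, 60.0, 69.4 and 62.6 CPM in Ang II libraries at 4 months. Its 6-month values were 38.5, 70.6, 34.0 and 27.0 CPM for sham and 31.2, 27.9, 17.7 and 31.3 CPM for Ang II, with sham replicate 2 above the rest. The lipid-sensing receptor Trem2 had log2 differences of 1.51 at 4 months and -0.10 at 6 months, the lysozyme gene Lyz2 1.06 and -0.30, and the macrophage marker Adgre1 (F4/80) 1.06 and -0.17. The 3 chains of complement C1q, C1qa, C1qb and C1qc, had differences of 0.78, 0.83 and 0.98 at 4 months and -0.24, -0.30 and -0.19 at 6 months. Smaller values at 4 months included those of Cd163, with 0.18 and -0.01, Mrc1, with 0.51 and -0.30, and Folr2, with 0.64 and 0.01. Whether these differ from the other members was not tested.

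Summed over the list, macrophage transcripts came to 562, 415, 393 and 610 CPM in sham and 759, 1183, 973 and 898 CPM in Ang II libraries at 4 months. At 6 months they came to 1173, 1170, 802 and 867 CPM in sham and 708, 729, 702 and 1122 CPM in Ang II libraries. The groups were apart at 4 months, and at 6 months Ang II replicate 4 lay among the sham libraries and the other 3 below them. The list's median interaction was -1.14, it was -1.18 without the 2 libraries rich in ribosomal RNA, and it was -0.81 with an adipocyte score as a covariate. With that covariate no gene passed: Cd68 had -1.54 and Mmp14 -0.84, both with an adjusted p of 0.0626 in edgeR. The score averaged log2 levels of the brown and general adipocyte lists together. The general adipocyte sums overlapped between treatments, at 27122 to 31286 CPM in sham and 27130 to 31050 CPM in Ang II libraries at 4 months, and at 9002 to 12116 and 9468 to 12774 CPM at 6 months. The brown adipocyte sums at 4 months were 4821, 5265, 4584 and 2053 CPM in sham and 1982 to 2260 CPM in Ang II libraries. At 6 months they were 1177 to 1873 and 1006 to 2201 CPM. Whether the score itself differed with treatment was not tested.

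Matrix proteases and their inhibitors followed the same order. Of 17 genes, 1 passed in edgeR (Mmp14), and 10 had an unadjusted p under 0.05 in the lower direction against 4.96% of all genes. The median log2 difference was 0.45 at 4 months and -0.26 at 6 months. The elastin-cutting cathepsin Ctss stood at 55.4, 24.4, 27.8 and 44.2 CPM in sham and 63.7, 81.7, 99.2 and 82.7 CPM in Ang II libraries at 4 months. By 6 months the values were 38.8, 71.4, 32.7 and 28.8 CPM in sham and 27.1, 27.1, 21.3 and 42.4 CPM in Ang II libraries. The groups were apart at 4 months only, with log2 differences of 1.11 and -0.55 and an interaction of -1.66 (SE 0.44, adjusted p = 0.209, edgeR). The gelatinase Mmp2, which Mmp14 activates, had 0.40 and -0.41 (adjusted p = 0.172, edgeR), and the bone cathepsin Ctsk 0.57 and -0.31 (adjusted p = 0.221, edgeR). Among the inhibitors, Timp2 had 0.45 and -0.23, Timp1 0.19 and -0.04, Timp3 0.16 and 0.09, and Timp4, which is abundant in fat and heart, 0.07 and 0.57.

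**Figure D2:**
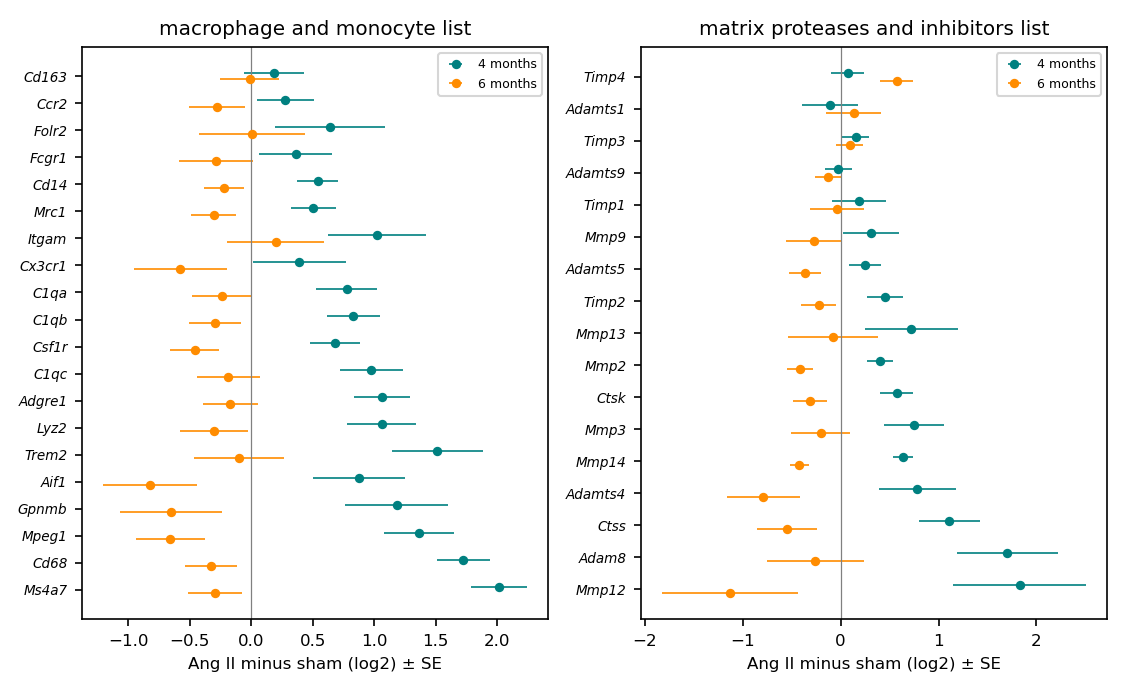
Log2 difference of Ang II minus sham with its SE at 4 months (teal) and 6 months (orange) for each measured member of the macrophage and monocyte list (left, 20 genes) and of the matrix proteases and inhibitors list (right, 17 genes), ordered by the interaction. All 20 macrophage members lie above 0 at 4 months and 2 lie above 0 at 6 months.

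No gene of the other immune lists passed in edgeR, while DESeq2 called Ccl8 (adjusted p = 1.03e-05). The 8 MHC class II genes, which present antigen to T cells, had medians of 0.60 at 4 months and -0.53 at 6 months, and 5 had an unadjusted p under 0.05. This count and those that follow are in the lower direction, where the share of all genes was 4.96%. T and NK cell genes had medians of 0.27 and -0.68, B and plasma cell genes 0.52 and -0.70, and proliferation genes 0.99 and -0.61, with 0, 0 and 2 members at an unadjusted p under 0.05. Spread within groups was large there: the B cell marker Ms4a1 ranged from 3.13 to 77.0 CPM among Ang II libraries of 4 months alone. Of 17 cytokine and chemokine genes, 3 had an unadjusted p under 0.05 (Ccl8, the T cell chemokine Ccl5 and the interferon-induced chemokine Cxcl9), and the medians were 0.64 and 0.13. Interferon-stimulated genes had medians of 0.34 and -0.10, with 2 of 15 at that level. Neutrophil and mast cell genes had medians of 0.07 and -0.49, with 1 of 9 at that level. In 4 of those 9 the Ang II libraries lay below all sham libraries at 6 months, against 1.35% of all genes. Their sums at 6 months were 109 to 171 CPM in sham and 75.8 to 96.1 CPM in Ang II libraries. Markers of other tissues had medians of 2.18 and -0.04 for airway epithelium, -0.02 and 1.29 for thymocytes, and -1.24 and -0.25 for red cells and platelets, and their part in the immune values was not tested.

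**Figure D3:**
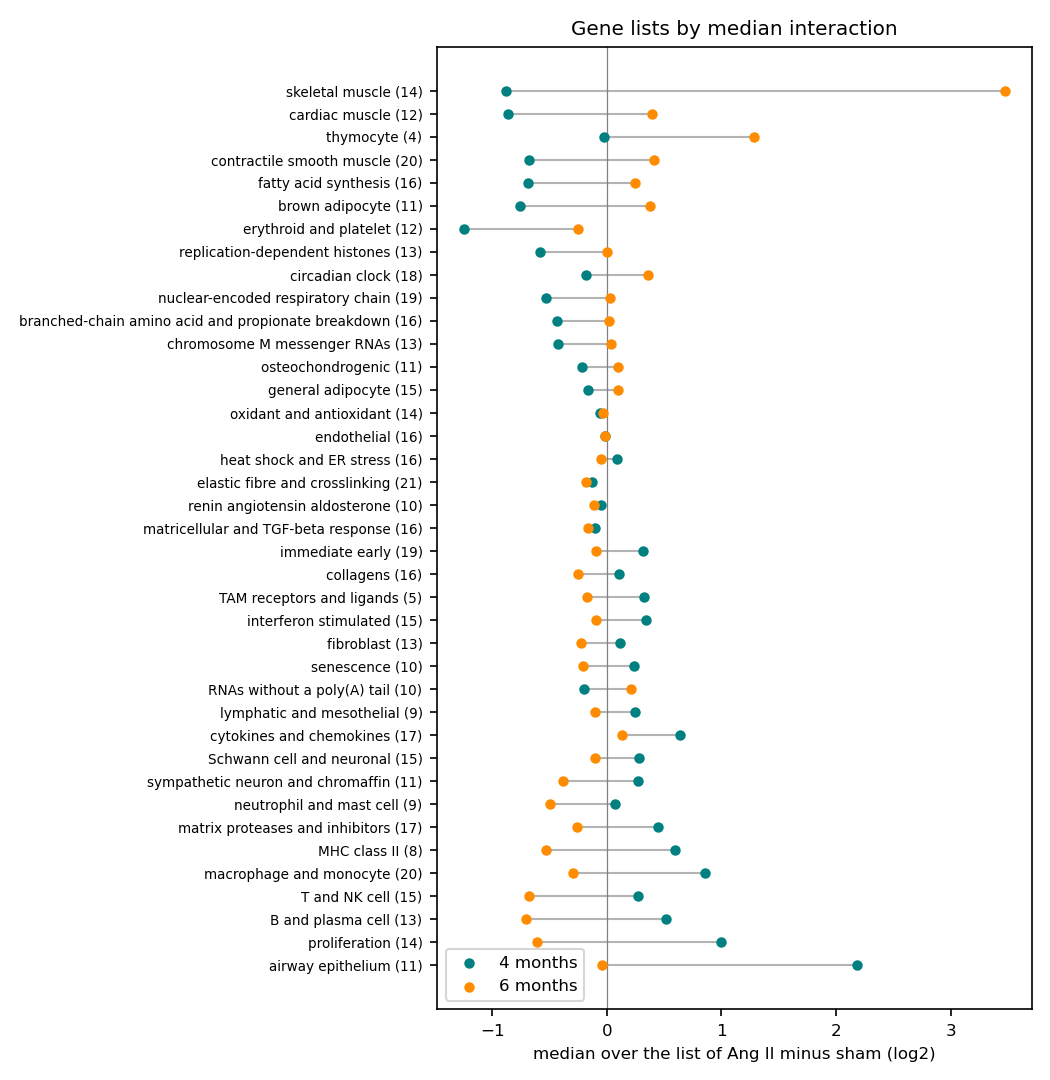
Median over each gene list of the log2 difference of Ang II minus sham at 4 months (teal) and 6 months (orange), with the number of members measured, ordered by the median interaction. Immune lists lie above 0 at 4 months and below 0 at 6 months, except that cytokines and chemokines stay above 0 and thymocyte genes have the opposite order, and muscle, fat and metabolic lists lie at the opposite end.

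In the other direction, lipid-making genes were lower in Ang II aortas at 4 months and level with or above sham at 6 months, and none passed in edgeR. DESeq2 called some for the interaction, among them Agpat2 (adjusted p = 0.0143), Pnpla3 (0.015) and Scd1 (0.0228). Of 16 genes of fatty acid synthesis, 11 had an unadjusted p under 0.05 in the higher direction against 7.4% of all genes, and in 9 the Ang II libraries lay below all sham libraries at 4 months, against 6.35% of all genes. None separated at 6 months, where the background was 1.6% for Ang II above and 1.35% for Ang II below. The median log2 difference was -0.69 at 4 months and 0.24 at 6 months. Scd1, which desaturates newly made fatty acids, stood at 3390 to 5993 CPM in sham and 1583 to 2237 CPM in Ang II libraries at 4 months. At 6 months it stood at 5789 to 7752 CPM in sham and 4329 to 15465 CPM in Ang II libraries, so the groups were apart at 4 months and overlapped at 6 months (interaction 1.74, SE 0.46, adjusted p = 0.209, edgeR).

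The acyltransferase Agpat2, which builds phosphatidic acid for triglyceride, stood at 413, 396, 342 and 358 CPM in sham and 213, 279, 202 and 225 CPM in Ang II libraries at 4 months. The 6-month levels were 134, 185, 142 and 191 CPM in sham and 284, 380, 239 and 139 CPM in Ang II libraries. The lowest of these was Ang II replicate 4, and the other 3 lay above all sham libraries (interaction 1.39, SE 0.33, adjusted p = 0.172, edgeR). Pnpla3, a lipid droplet acylhydrolase, had an interaction of 1.36 (SE 0.31, adjusted p = 0.172, edgeR). Fasn, the fatty acid synthase, had log2 differences of -1.92 and 0.25, of which the first rests in part on sham replicate 4, at 9266 CPM against 1358 to 1755 CPM in the other 3. Without that library the list's median interaction was 0.52 in place of 1.09, and the median at 4 months was -0.50.

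Mitochondrial fuel-burning genes were lower in Ang II aortas at 4 months and close to sham at 6 months. Of 16 genes that break down branched-chain amino acids and propionate, the Ang II libraries lay below all sham libraries in 15 at 4 months, against 6.35% of all genes. None of the 16 separated at 6 months, where the background was 1.6% above and 1.35% below. For the interaction 5 had an unadjusted p under 0.05 in the higher direction, against 7.4% of all genes. The medians of the 16 were -0.43 and 0.02. The propionyl-CoA carboxylase chain Pcca stood at 150, 154, 172 and 154 CPM in sham and 99.9, 106, 96.3 and 101 CPM in Ang II libraries at 4 months. The 6-month sham libraries held 85.7, 80.6, 89.4 and 114 CPM and the Ang II libraries 94.3, 120, 87.7 and 59.7 CPM. The groups thus separated at 4 months and overlapped at 6 months (interaction 0.61, SE 0.23, adjusted p = 0.316, edgeR).

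Nuclear-encoded subunits of the respiratory chain had medians of -0.53 and 0.03, with Ang II below all sham libraries in 15 of 19 at 4 months and in none at 6 months. The shares of all genes were 6.35% and 1.35%. Sdha, the flavoprotein of succinate dehydrogenase, had log2 differences of -0.59 and -0.06 (adjusted p of the interaction 0.365, edgeR). The adipocyte covariate took the median interaction of the amino acid list from 0.44 to 0.02 and that of the respiratory list from 0.54 to 0.06. Brown fat genes had medians of -0.76 and 0.37, with 7 of 11 at an unadjusted p under 0.05 in the higher direction against 7.4% of all genes. Their uncoupling protein Ucp1 had log2 differences of -1.35 and 0.41 (adjusted p of the interaction 0.309, edgeR).

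None of the 9 genes next by p in the higher direction passed in edgeR, while DESeq2 called all 9. Ugp2, which makes the UDP-glucose used for glycogen, stood at 119, 161, 123 and 135 CPM in sham and 89.6, 97.1, 96.3 and 96.6 CPM in Ang II libraries at 4 months. Its 6-month values were 61.9, 72.3, 74.8 and 91.4 CPM for sham and 101, 114, 106 and 84.6 CPM for Ang II. Ang II was below all sham libraries at 4 months, and 3 of 4 were above them at 6 months (interaction 0.94, SE 0.18, adjusted p = 0.129, edgeR). Trp53inp2, an autophagy protein also named DOR, had log2 differences of -0.66 and 0.37, with the groups apart in opposite directions (adjusted p = 0.127, edgeR). The calcium channel subunit Cacna2d1 had -0.39 and 0.97, the acute-phase protein Orm1 -0.82 and 0.60, and Ubac1, of a ubiquitin ligase, -0.39 and 0.48, each with an adjusted p of 0.150 in edgeR. The muscle-associated genes Lrrc39 and Lrtm1 had interactions of 1.29 (adjusted p = 0.123) and 2.39 (adjusted p = 0.127), and the acylphosphatase Acyp2 had 1.32 (adjusted p = 0.127), all by edgeR. Exons of Lrrc39 and Ugp2 overlap those of a gene on the opposite strand, and the strand setting of the counting is not given in the sources used here.

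No clock gene passed the interaction test or the test of Ang II against sham at 4 or 6 months in edgeR. DESeq2 called some for the interaction, among them Bhlhe41 (adjusted p = 0.00464), Per2 (0.0166), Nr1d2 (0.0198) and Arntl (0.0427), which limma voom did not call. The authors' deposited table for 6 months, made with DESeq2, gave Bhlhe41 an adjusted p of 0.0364. Of 18 genes, 11 had an unadjusted p under 0.05 in the higher direction and 1, Arntl, in the lower, against 7.4% and 4.96% of all genes. The Ang II libraries lay above all sham libraries in 6 genes at 6 months and in none at 4 months, and below them in 2 at 6 months (Arntl and Npas2) and in 1 at 4 months (Nfil3). Over all genes the shares were 1.6% above and 1.35% below at 6 months, and 2.61% above and 6.35% below at 4 months. By the fit 1 of the 18 was above 0 at 4 months and 12 were at 6 months, with medians of -0.18 and 0.36. Arntl and Npas2 encode activators of the clock loop, and the Per, Nr1d and PAR-bZIP genes are their targets. Dbp, one such target, stood at 88.8, 99.6, 124 and 95.3 CPM in sham and 82.0, 86.9, 99.1 and 113 CPM in Ang II libraries at 4 months. By 6 months the values were 21.8, 15.4, 13.4 and 16.9 CPM in sham and 28.4, 22.0, 40.3 and 36.3 CPM in Ang II libraries. The groups overlapped at 4 months and were apart at 6 months, with log2 differences of -0.10 and 0.91 (adjusted p of the interaction 0.209, edgeR). Nr1d2 had differences of -0.13 and 0.57, Per2 -0.24 and 0.74, and Ciart 0.94 at 6 months after -0.43 at 4 months.

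Bhlhe41, which represses clock activators, had the smallest p of the list. It stood at 30.4, 32.6, 37.8 and 53.2 CPM in sham and 30.6, 30.2, 24.7 and 23.1 CPM in Ang II libraries at 4 months, and at 10.1, 9.24, 9.25 and 11.4 CPM in sham and 15.2, 13.2, 16.7 and 16.8 CPM in Ang II libraries at 6 months. The groups overlapped at 4 months and were apart at 6 months (interaction 1.13, SE 0.23, adjusted p = 0.150, edgeR). Arntl had the opposite order, at 13.0, 16.5, 19.4 and 13.3 CPM in sham and 9.24, 10.6, 9.75 and 10.7 CPM in Ang II libraries at 6 months. The labels give no hour of harvest, and whether it differed between groups was not tested.

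The window of Ciart (chr3:95882229-95882478, minus strand, the 250 bases before its start in RefSeq on GRCm38.p6) is shown because the activators of the loop bind the E-box CACGTG, in capitals, and it holds more of them than the other clock windows.
Ciart: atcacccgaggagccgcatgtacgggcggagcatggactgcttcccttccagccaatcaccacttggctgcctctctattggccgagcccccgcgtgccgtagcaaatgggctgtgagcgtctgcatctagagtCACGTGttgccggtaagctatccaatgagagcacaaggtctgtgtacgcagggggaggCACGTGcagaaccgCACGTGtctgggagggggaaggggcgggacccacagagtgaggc
The E-boxes of Ciart begin 116, 58 and 44 bases before the start. The motif reads the same on both strands, and it lies in 5 of the 15 clock windows in the table against 6.04% of all windows of that length.

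**Figure D4:**
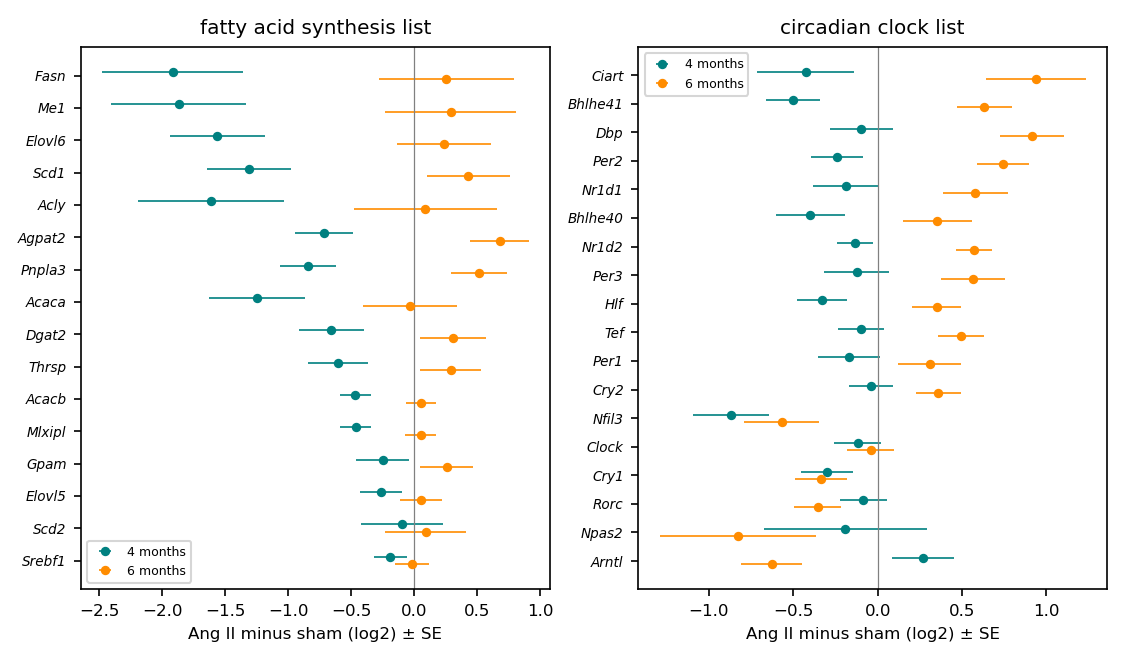
Log2 difference of Ang II minus sham with its SE at 4 months (teal) and 6 months (orange) for each member of the fatty acid synthesis list (left, 16 genes) and of the circadian clock list (right, 18 genes), ordered by the interaction. Fatty acid genes lie below 0 at 4 months. Of the clock genes 1 lies above 0 at 4 months (median -0.18) and 12 at 6 months (median 0.36).

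Smooth muscle genes had negative differences at 4 months and positive ones at 6 months, and none passed in edgeR. DESeq2 gave Des an adjusted p of 0.0496 for the interaction. Of 20 contractile genes, 9 had an unadjusted p under 0.05 in the higher direction against 7.4% of all genes, and the medians were -0.68 and 0.42. The median interaction was 1.14 with all libraries and 0.43 without sham replicate 4 at 4 months, the library with high Acta2, and the median at 4 months was then -0.11. Acta2, the actin of smooth muscle, stood at 199, 211, 208 and 940 CPM in sham and 275, 198, 96.6 and 184 CPM in Ang II libraries at 4 months. At 6 months it stood at 236, 359, 269 and 394 CPM in sham and 470, 400, 351 and 238 CPM in Ang II libraries, and the groups overlapped at both times (interaction 1.26, SE 0.66, adjusted p = 0.449, edgeR).

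The 2 contractile genes with the largest interactions, Tpm2 and Des, are also expressed in striated muscle. At 6 months the 4 libraries of Ang II aortas held 59.4, 96.4, 726 and 786 CPM of Tpm2 against 32.3 to 77.0 CPM in sham. The skeletal muscle list summed to 3065, 4056, 21641 and 19544 CPM in those Ang II libraries and to 1616 to 3874 CPM in sham, so replicates 3 and 4 were high in both, and the part of skeletal muscle in the smooth muscle values was not tested. At 4 months the skeletal muscle sums were 1157, 11551, 1724 and 244 CPM in sham and 362, 1288, 2373 and 3879 CPM in Ang II libraries. All 14 measured skeletal muscle genes had an unadjusted p under 0.05 in the higher direction, against 7.4% of all genes, and none passed in edgeR. DESeq2 called some, among them Myh2 (adjusted p = 0.00305) and Ttn (0.0354). Their median interaction was 4.43, and 2.45 without sham replicate 2 at 4 months, when the median at 4 months turned from -0.88 to 0.97.

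The median interaction was -0.36 for collagen genes, -0.10 for elastic fibre genes and -0.37 for Axl with its related receptors and ligands. These medians were smaller in size than the -1.14 of the macrophage list. Collagen genes had medians of 0.11 and -0.25 with 2 of 16 at an unadjusted p under 0.05 in the lower direction, and elastic fibre genes -0.13 and -0.18 with 1 of 21. The share of all genes was 4.96%, so the elastic fibre count lies near it. Col3a1 had an interaction of -0.72 (SE 0.32, adjusted p = 0.380) and Col1a1 one of -0.51 (SE 0.36, adjusted p = 0.573), both by edgeR. Axl stood at 52.1, 48.1, 42.4 and 92.3 CPM in sham and 59.8, 73.0, 48.4 and 68.2 CPM in Ang II libraries at 4 months. The 6-month levels were 165, 164, 141 and 153 CPM in sham and 135, 114, 127 and 137 CPM in Ang II libraries. Ang II libraries were all below sham at 6 months and overlapped with sham at 4 months (interaction -0.37, SE 0.28, adjusted p = 0.603, edgeR).

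The related receptor Mertk stood at 17.4, 15.4, 14 and 24.9 CPM in sham and 29.7, 29.2, 19.7 and 24 CPM in Ang II libraries at 4 months. The 6-month sham libraries held 23.9, 20.7, 17.8 and 22.0 CPM and the Ang II libraries 24.5, 28.0, 27.3 and 34.7 CPM, so that Ang II was above sham in all 4. Its interaction of -0.08 (SE 0.26, adjusted p = 0.920, edgeR) changed sign under 3 of the alternatives. The ligands Gas6 and Pros1 had interactions of -0.30 and -0.47 and the receptor Tyro3 one of -1.13, with adjusted p of 0.698, 0.324 and 0.561 in edgeR.

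Most genes called at 4 months had the opposite sign at 6 months. In the fit of 16 libraries 7 genes passed at 4 months, all higher in Ang II (0.0358% of genes): Ms4a7, Cd68, Uap1l1, Hpgds, Mmp14, Slco2b1 and Wfdc17, a secreted protein of activated macrophages. None of the 7 kept its sign at 6 months. At 6 months no gene passed in edgeR (0% of genes, smallest adjusted p 0.483, 1095 genes at an unadjusted p under 0.05), while DESeq2 called 24 and limma voom 0. With the 8 libraries of 4 months alone, filtered and scaled on their own, 114 of 16127 genes passed (0.707%).

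Of those 114, 113 were also measured with the 6-month libraries alone. Among the 22 that were higher at 4 months, 2 had the same sign at 6 months, or 9.09% against 45.2% of all genes, and the median log2 difference went from 0.80 to -0.23. Among the 91 that were lower at 4 months, 31 had the same sign, or 34.1% against 54.8% of all genes, and the median went from -0.56 to 0.05. None kept as much as 50% of its size, and choosing genes by the 4-month value makes that value large. In the 16-library fit, 4 of the 114 passed the interaction test, against 0.0255% of all genes. Of the 114, 96 had an unadjusted p under 0.05, against 2420 of all 19571 genes. The interaction subtracts the 4-month difference by which the 114 were chosen, in the same libraries. These 2 counts are therefore no independent evidence of a change.

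The authors' deposited tables gave the same order with more genes. In the authors' deposited table for 4 months 1028 genes had an adjusted p under 0.05, or 6.11%, and in that for 6 months 68 did, or 0.311%. Of the 4-month calls that the authors' deposited table for 6 months also lists, 281 were higher and 739 lower. Among the 281 in the authors' deposited tables, 84 had the same sign at 6 months, or 29.9% against 47.2% of all genes. Among the 739 lower ones 270 did, or 36.5% against 52.8%. Of the 6-month calls that the authors' deposited table for 4 months also lists, 52 were higher and 10 lower. Among the 52 in the authors' deposited tables, 10 had the same sign at 4 months, or 19.2% against 55.6% of all genes. Among the 10 lower ones 5 did, or 50% against 44.4%. In the authors' deposited tables Cd68 had log2 fold changes of 1.75 and -0.36, and Mmp14 0.65 and -0.45.

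**Figure D5:**
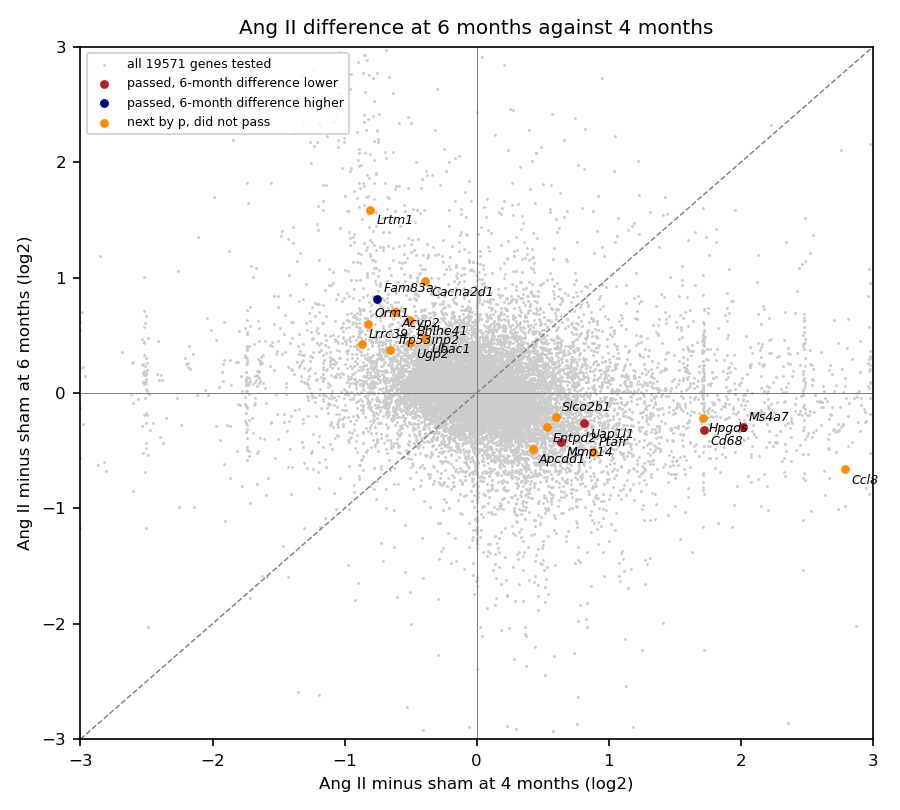
Log2 difference of Ang II minus sham at 6 months against that at 4 months for each of 19571 genes tested (grey; 254 fall outside the axes), with the 5 genes that passed the interaction test in red or blue and the 15 next by p in orange. The dashed line marks equal differences, and the named genes lie in the 2 quadrants of opposite sign.

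Genes whose groups did not overlap at either time were few. Ang II lay above sham at 4 months and below it at 6 months in 16 genes, below and then above in 21, above at both times in 1 and below at both in 4. The shares of genes apart at each time, multiplied together, come to 6.88, 19.9, 8.18 and 16.8 genes in the same order, so the 21 lie near what the separate shares give. The first set included the granulin precursor Grn, with log2 differences of 0.35 and -0.25, the cell cycle kinase Cdk4 with 0.30 and -0.24, and Srebf2, the regulator of cholesterol synthesis, with 0.31 and -0.42. The second included the muscle LIM protein Fhl1, with -0.73 and 0.77, and the calcium sensor Stim1, with -0.33 and 0.40. These 5 were picked after their values were seen, and their adjusted p for the interaction lay between 0.169 and 0.204 in edgeR.

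The 2-month libraries, which the interaction does not use, placed the lower-going genes with 4 months. All 10 genes named in the lower direction had the same sign at 2 months as at 4 months, and 5 of them passed in a fit of the 8 libraries of that time, in which 1.81% of genes passed. At 2 months the log2 difference was 1.51 for Cd68 (SE 0.27, adjusted p = 0.0280, edgeR), 1.66 for Ms4a7 (SE 0.27, adjusted p = 0.0210, edgeR) and 0.52 for Mmp14 (SE 0.15, adjusted p = 0.164, edgeR). All 20 macrophage list genes were above 0 there, with a median of 0.64, and 4 of them passed. Since the lists were chosen with earlier results of these data known, that direction is no independent evidence either. Of the 10 named in the higher direction, 8 had the 4-month sign and 1, Bhlhe41, passed (-1.06, SE 0.15, adjusted p = 0.0126, edgeR). Their 2-month median was -0.08, against 0.90 for the 10 lower-going genes. Some of the same-sign values were near 0, such as -0.01 for Trp53inp2, -0.03 for Acyp2 and -0.04 for Lrrc39. The share of all genes with the same sign at 2 and 4 months was not counted. Fam83a had 0.12 (SE 0.31) at 2 months, and the fatty acid list a median of -0.05. The contractile smooth muscle list had a 2-month median of -1.55. Of its 20 genes, 14 passed in the lower direction, against 1.81% of all genes in either direction. Acta2 had -2.51 (SE 0.43, adjusted p = 0.0251, edgeR) and Eln -2.79 (SE 0.41, adjusted p = 0.0152, edgeR). Mertk had -0.74 at 2 months (SE 0.14, adjusted p = 0.0346, edgeR), opposite in sign to its 4-month difference of 0.52.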

How the data were processed

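RNA of mouse aortic homogenates was sequenced in 24 libraries, of which the 16 of 4 and 6 months were compared. Per the submitters' processing notes the build was mm10 and the tools included STAR, featureCounts and DESeq2, with cutadapt and FastQC before them. No source used here gives their versions, the annotation or the strand setting. The authors deposited whole-number read counts for 37606 genes, and their own Ang II comparisons within each time with log2 fold changes and adjusted p-values, used here only where named. Symbols came from the deposited tables for 23350 genes and from GENCODE M21 for 14204, and 52 had none.

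The count table was tested with edgeR 4.0.16 under R 4.3.3: filterByExpr (minimum count 10, minimum total 15), TMM scaling, 1 fit with 4 group means, and the quasi-likelihood F test with Benjamini-Hochberg adjustment over all genes at 0.05. CPM are TMM-scaled. An SE is the log2 difference over the square root of its F. The procedure was tested on simulated data with planted interactions. It called 0% of those of 1.5-fold, 16.4% of 2-fold and 56.1% of 4-fold, and 0 genes without one. A gene that did not pass may therefore still differ. DESeq2 1.42.0 and limma 3.58.1 (voom) were alternatives, beside other scalings and filters, covariates, replicate blocks and leaving out each library.

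The comparison, the 39 gene lists and the genes always named were chosen with earlier results of these data known. Genes were named by 4 rules: passing genes with a mean CPM of at least 1, filled to 10 a direction by p; the passing members, or the member with the smallest p, of each list; genes passing at 4 or 6 months; and Axl, Mertk, Tyro3, Gas6, Pros1, Agtr1a, Acta2, Eln, Col1a1, Col3a1, Cd68 and Scd1. The text gives part of them, and other list members as examples chosen after their values were seen. Promoter windows are from RefSeq (GRCm38.p6). Where a gene has several, the one nearest its annotated 5′ end was used.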

Additional observations from a re-analysis of the deposited data

Results flagged for a closer look

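The Ang II difference changed between 4 and 6 months in the 5 genes that passed the interaction test in edgeR: Ms4a7 (-2.31), Cd68 (-2.05), Uap1l1 (-1.08), Mmp14 (-1.06) and Fam83a (1.57, all log2).

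Of 136 groups of 4 libraries checked for a single distant library, 7 held one, and chance gives about 1 in 20. Sham replicate 4 at 4 months was high for Acta2 (940 CPM), Eln (292 CPM) and Orm1 (79.6 CPM). Ang II replicate 1 was low for Ugp2 at 4 months (89.6 CPM) and high for Col1a1 at 6 months (445 CPM). At 6 months Ang II replicate 3 was high for Ubac1 (36.7 CPM) and Ang II replicate 4 for Cd68 (13.9 CPM).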

How the results depend on the processing

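The interaction was called in 5 genes, the 4-month difference in 7 and the 6-month difference in 0. DESeq2 called 256, 359 and 24, and voom with quality weights 14 for the interaction and 616 at 4 months. Without a low-count filter the interaction called 1, and with all 24 libraries in 1 fit 9, and 11 at 4 months. The 4-month count was 4 with an absolute log2 difference of at least 1 and 114 with its 8 libraries alone. An adipocyte covariate left 0 and 2. Leaving out the 2 libraries rich in ribosomal RNA, chosen after seeing the data, left 1 and 15. Leaving out 1 library gave 0 to 16 genes for the interaction, 0 to 22 for the 4-month difference and 0 to 1 for the 6-month one. The cause of these shifts was not tested. Replicate numbers did not pair the libraries throughout (deviations correlated at -0.19 to 0.33 among 4-month pairs and -0.17 to 0.51 among 6-month pairs). For replicate 2 at 4 months (0.33) and replicates 2 (0.18) and 3 (0.51) at 6 months, the same number was the best partner. Whether those pairs share a batch was not tested. With the replicate number as a block within each time 0 genes were called for the interaction and 0 at 4 months, with a block across times 0 and 5, and with the block and the adipocyte covariate 0 and 0. Over 31 named genes and their alternatives, 737 of 868 values kept sign and side of the threshold, and 7 changed sign. Eln (0.40) had -0.46 with voom, -0.0707 with the block within each time, and from -0.746 (without sham replicate 4 at 4 months) to 0.642 with 1 library left out. Gas6 (-0.30) had 0.0685 with the adipocyte covariate. Mertk (-0.08) had 0.13 with that covariate, 0.105 with the block and covariate, and from -0.293 to 0.0152 (without sham replicate 3 at 4 months) with 1 library left out.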
